A study of Mus musculus with 15 samples.

Results

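The genes described here are 9 transcription factor genes of blood stem and progenitor cells: Myb, Ikzf1, Ikzf2, Mecom, Meis1, Hhex, Hlf, Spi1 and Cebpa. They were taken as the rows of the deposited count table that carry these symbols, and 9 of 9 were found among 24034 gene rows. RNA was sequenced from 15 libraries of differentiated mouse embryonic stem cells, 3 in each of 5 sorted groups. The stem cells carried LacZ, which encodes a bacterial galactosidase, as a reporter driven by regulatory DNA of Eng. Eng encodes endoglin, a surface co-receptor for TGF-beta family ligands, and FDG is a substrate that fluoresces once the LacZ enzyme has cut it. From a line with the Eng promoter and the -8 kb enhancer (-8/P), cells that the labels call HEI, without spelling the term out, were sorted into ENG+/FDG+, ENG-/FDG+ and ENG+/FDG- fractions. From a line that also held the +7 and +9 kb enhancers (-8/P/+7/+9), FLK1+ cells were sorted by reporter activity into a LacZ+ and a LacZ- fraction (Kdr encodes FLK1, a VEGF receptor). All groups thus carry a reporter, and the HEI and FLK1+ groups come from different reporter lines, so stage and line cannot be told apart. The number of clones behind each line, the culture days and the sort gates are given by no source used here, nor is whether the 3 replicates of a group are separate cultures. The p values therefore measure the spread between these samples, which may be technical.

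In the embryo, blood stem and progenitor cells arise from haemogenic endothelium, a vessel lining that switches on blood genes as its endothelial programme fades. MYB is a DNA-binding factor required in mice for adult-type blood formation, Ikaros (Ikzf1) and its relative Helios (Ikzf2) are zinc finger factors best known from lymphocytes, and MECOM (EVI1) and MEIS1 are a PRDM-family zinc finger factor and a homeobox partner of PBX and HOX proteins, both needed by mouse blood stem cells. HHEX is a homeobox factor of early endothelium, blood and liver, HLF is a bZIP factor that marks blood stem cells, and PU.1 (Spi1) and C/EBP-alpha (Cebpa) direct the myeloid lineage.

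Library totals ran from 9673396 to 16337785 counts. Replicate 1 differed from replicates 2 and 3 in all 5 groups, with totals of at least 12188618 counts against at most 11747575, and with 1.40% to 3.56% of counts on the ribosomal precursor gene Rn45s against 0.524% to 0.784%. Results that rest on them are given below for all libraries, with the replicate number as a block where this changes a call, and for replicates 2 and 3 alone. As a check of the labels, the Eng level was 424 ± 416 CPM for ENG+/FDG+, 81.8 ± 68.5 CPM for ENG-/FDG+ and 455 ± 440 CPM for ENG+/FDG- cells, with 43.2 ± 36.4 CPM for the LacZ+ fraction and 28.1 ± 9.17 CPM for the LacZ- one (mean ± SD, n = 3 each). The lowest ENG+ HEI library (180 CPM) was above the highest ENG-/FDG+ library (161 CPM). CPM are read counts divided by the TMM-scaled library size, on the usual per-million scale. Kdr averaged 494 ± 162 CPM for the LacZ+ and 536 ± 201 CPM for the LacZ- fraction, and no FLK1+ library was below 319 CPM.

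The 9 genes fell into 4 patterns. Myb, Ikzf1 and Ikzf2 were highest among HEI cells in the ENG-/FDG+ fraction. Mecom and Meis1 were high in the 3 HEI fractions and low in FLK1+ cells, Hhex was at a similar level in all 5 groups, and Hlf, Spi1 and Cebpa had few counts, with at most 46, 152 and 8 in a library. Per kb of annotated exon sequence, which allows genes to be set beside each other, mean levels in ENG+/FDG+ cells were 16.3 CPM for Hhex, 9.62 for Mecom, 2.93 for Meis1, 1.5 for Ikzf2, 1.25 for Ikzf1 and 0.892 for Myb. In ENG-/FDG+ cells the same per-kb levels were 14.4 CPM for Hhex, 11.2 for Myb, 7.51 for Ikzf1, 7.04 for Ikzf2, 4.78 for Mecom and 2.22 for Meis1. Myb thus stood last of these 6 genes in the first fraction and next to Hhex in the other. In LacZ+ cells Hhex (14.7 CPM per kb) and Ikzf1 (7.50) led, and Mecom stood at 0.659.

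**Figure D1:**
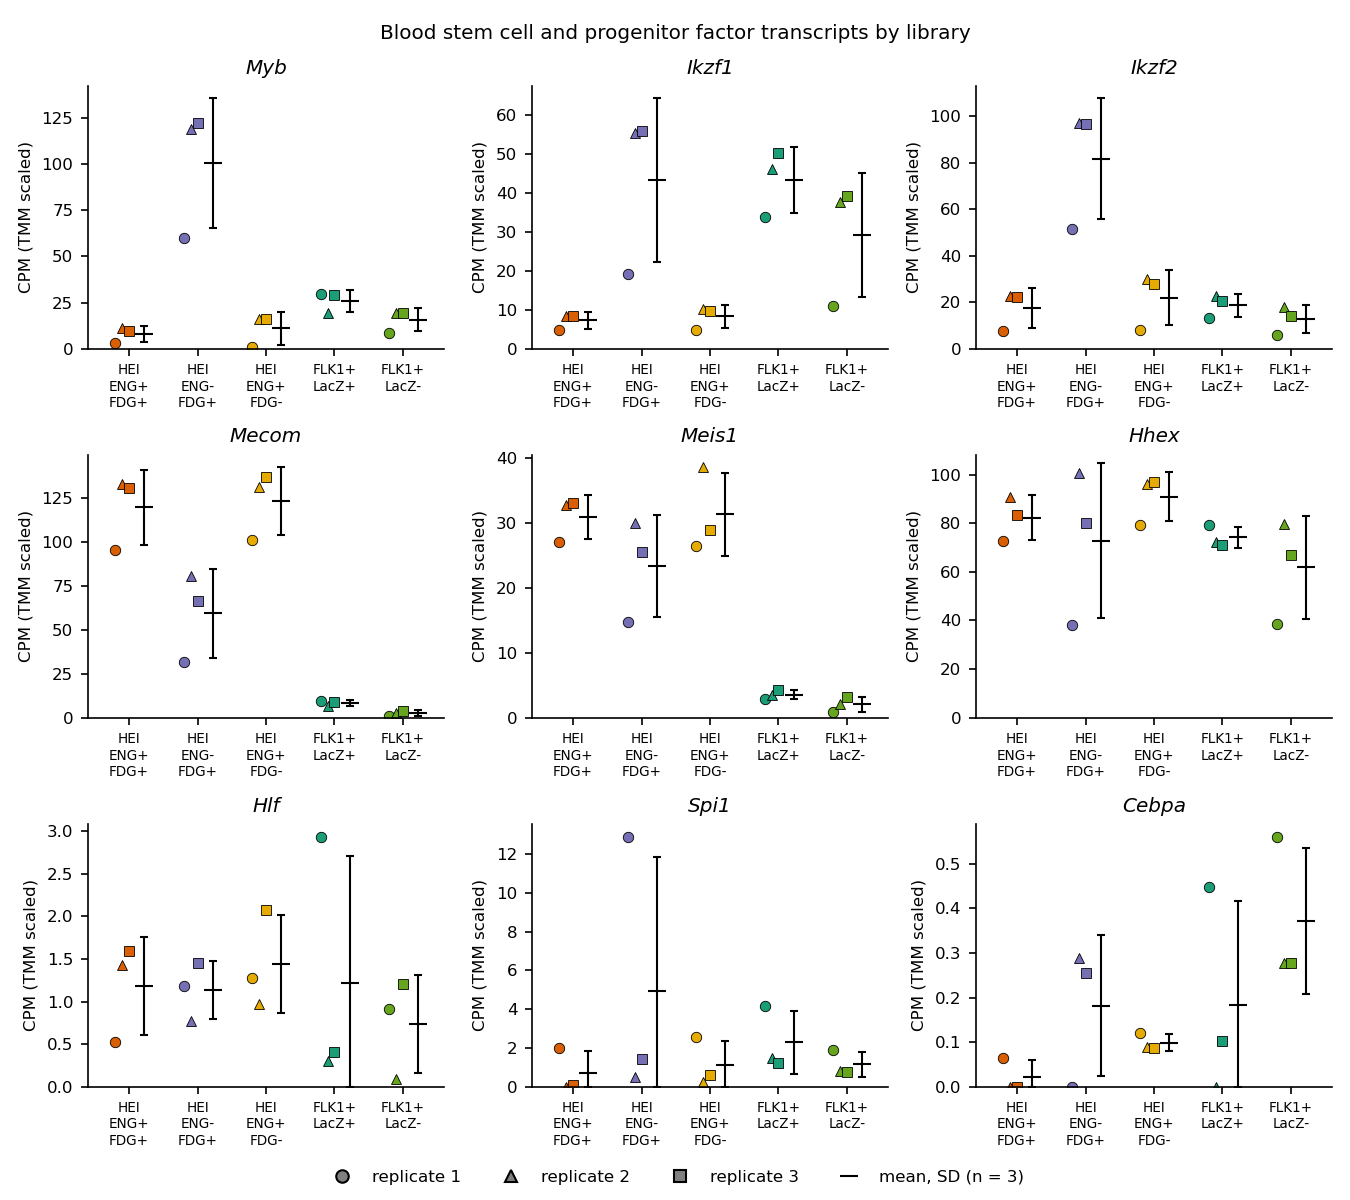
CPM of each of the 9 genes (linear axis from 0, different for each panel) in the 15 libraries, by sorted group; circles, triangles and squares are replicates 1, 2 and 3, and dashes with whiskers are the mean and SD of 3 libraries, with whiskers ending at 0. Every ENG-/FDG+ library of Myb, Ikzf1 and Ikzf2 lies above all ENG+ HEI libraries, and every HEI library of Mecom and Meis1 lies above all FLK1+ libraries.

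The level of Myb was 60.0, 119 and 122 CPM in replicates 1, 2 and 3 of ENG-/FDG+ cells, against 0.910, 15.9 and 16.1 CPM in ENG+/FDG- cells. ENG+/FDG+ cells stood at 3.12, 11.3 and 9.44 CPM, LacZ+ cells at 29.4, 19.2 and 28.9 CPM and LacZ- cells at 8.76, 19.1 and 19.5 CPM. The lowest ENG-/FDG+ library was above every library of the other 4 groups, while each of these 4 groups overlapped its neighbour in the order of their means. The share of all genes with ENG-/FDG+ libraries above all others was not counted.

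Ikzf1, which encodes Ikaros, was at 4.81, 8.48 and 8.44 CPM in ENG+/FDG+ cells, against 19.1, 55.2 and 55.8 CPM in ENG-/FDG+ cells. It stood at 4.91, 10.3 and 9.79 CPM in ENG+/FDG- cells. At the FLK1+ stage it was at 33.8, 46.1 and 50.1 CPM in LacZ+ and at 10.9, 37.7 and 39.1 CPM in the LacZ- fraction, so that the means of ENG-/FDG+ cells (43.4 CPM) and LacZ+ cells (43.3 CPM) were alike and their libraries overlapped. The 2 ENG+ fractions were low in every library.

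Ikzf2, which encodes Helios, was at 7.48, 22.6 and 22.3 CPM in ENG+/FDG+ cells, against 51.7, 97.1 and 96.5 CPM in ENG-/FDG+ cells. ENG+/FDG- cells had 8.19, 29.9 and 28.0 CPM, LacZ+ cells 13.1, 22.6 and 20.5 CPM and LacZ- cells 5.96, 17.9 and 14.2 CPM. All ENG-/FDG+ libraries lay above all others, whose groups overlapped (share of all genes not counted, as for Myb). The balance within the Ikaros family differed between stages: there were 1.55 to 2.66 Ikzf2 reads per Ikzf1 read in ENG+/FDG+, 1.73 to 2.71 in ENG-/FDG+ and 1.67 to 2.90 in ENG+/FDG- libraries, against 0.388 to 0.490 in LacZ+ and 0.363 to 0.548 in LacZ- libraries. These read ratios are not corrected for length, and their ranges in HEI and FLK1+ libraries did not overlap. How many gene pairs differ in this way was not tested.

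ENG+/FDG+ cells were set against ENG-/FDG+ cells to ask what goes with surface ENG among cells with an active -8 kb reporter. Of the 8 genes that passed the filter on low counts, none passed the edgeR test at an adjusted p of 0.05 with group means alone, where 0.278% of all 13662 genes tested were called. Of the 8, 4 had an unadjusted p under 0.05, against 1288 genes (9.43%) of all tested. With DESeq2, 3 of the 8 were called, and DESeq2 also called more of all genes than edgeR did with group means. The log2 differences were -3.66 ± 0.82 (SE) for Myb (edgeR adjusted p = 0.0870), -2.58 ± 0.54 for Ikzf1 (0.0673) and -2.23 ± 0.57 for Ikzf2 (0.143).

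With the replicate number as a block, 5 of 8 were called, where 10.8% of all genes were. Myb fell by 3.74 ± 0.57 on the log2 scale in ENG+/FDG+ relative to ENG-/FDG+ cells (adjusted p = 0.00164), Ikzf1 fell by 2.49 ± 0.24 (5.9e-05) and Ikzf2 fell by 2.33 ± 0.21 (4.1e-05). Mecom rose by 1.06 ± 0.27 (0.0268), and Spi1 fell by 2.70 ± 0.73 (0.0309). In replicates 2 and 3 alone the same 5 genes were called, where 29.3% of all genes were, with log2 differences of -3.48 ± 0.15 for Myb, -2.65 ± 0.13 for Ikzf1 and -2.05 ± 0.12 for Ikzf2. In all 3 pairs of libraries with the same number Myb, Ikzf1 and Ikzf2 were lower and Mecom higher in ENG+/FDG+ cells, and these 4 were the members whose libraries did not overlap between the groups, as was so for 14.4% of all genes.

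ENG-/FDG+ cells set against ENG+/FDG- cells, which differ in both gates and share the ENG-/FDG+ libraries with the comparison above, gave log2 differences of 3.20 ± 0.80 for Myb (edgeR adjusted p = 0.141), 2.38 ± 0.53 for Ikzf1 (0.0850), 1.89 ± 0.57 for Ikzf2 (0.226) and -1.05 ± 0.44 for Mecom (0.455). None of 8 members was called, where 0.351% of all genes were. Of the 8, 4 had an unadjusted p under 0.05, against 1309 genes (9.58%) of all tested. DESeq2 called 3 of the 8, among 445 genes in all. With the replicate block 4 of 8 were called, where 11.1% of all genes were. Myb rose by 3.43 ± 0.56 (0.00258), Ikzf1 by 2.31 ± 0.24 (9.8e-05) and Ikzf2 by 2.03 ± 0.21 (9.2e-05), and Mecom fell by 1.11 ± 0.28 (0.0217). In replicates 2 and 3 alone 4 of 8 were called, where 27.1% of all genes were. The test for any difference among the 3 HEI fractions called none of 8 members (0.322% of all genes), and with the block it called Myb, Ikzf1, Ikzf2 and Mecom (4 of 8, where 9.65% of all genes were called), while the fit of replicates 2 and 3 called 5 of 8 (30% of all genes).

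**Figure D2:**
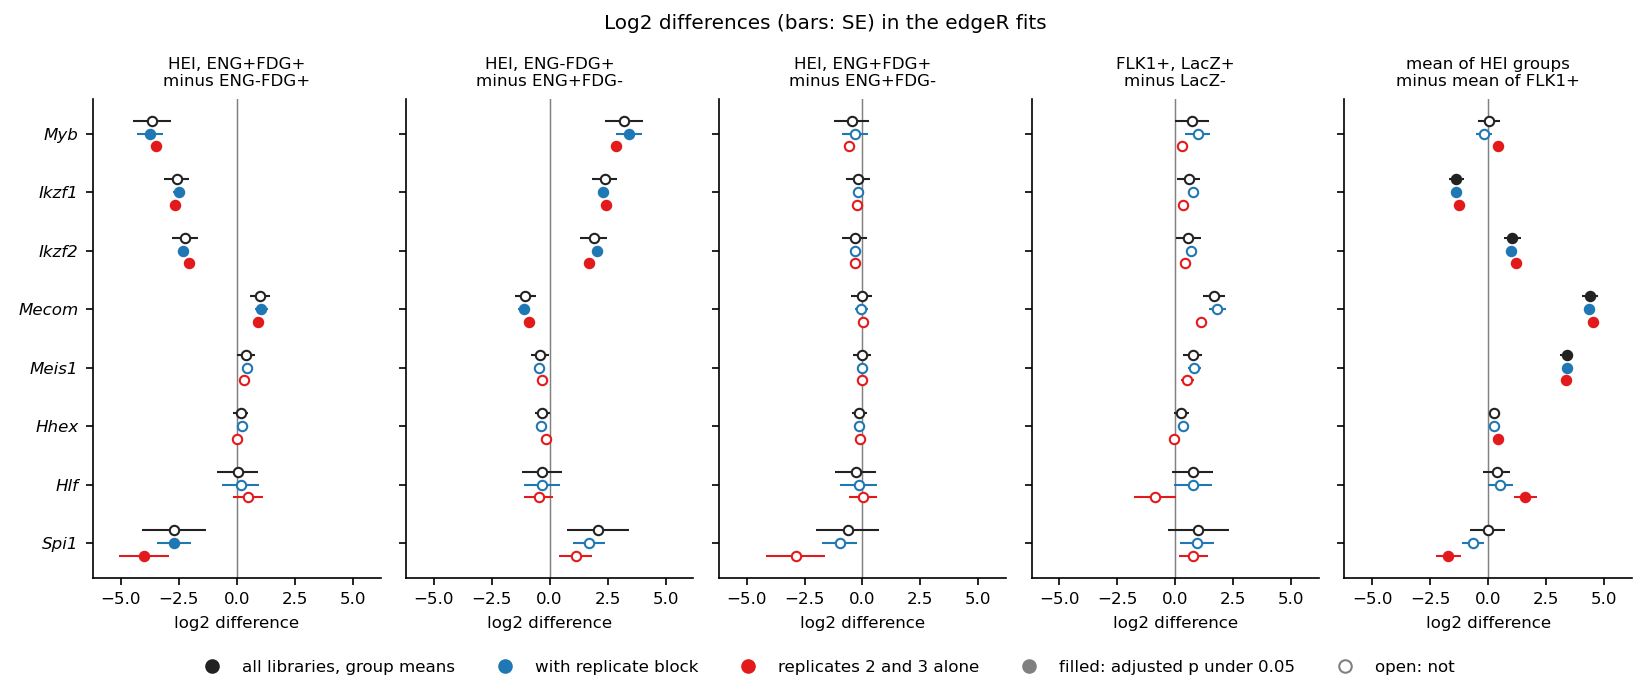
Log2 differences of the 8 tested genes (points, with SE as bars) in 5 comparisons, from the edgeR fit of all libraries (black), the fit with the replicate block (blue) and the fit of replicates 2 and 3 (red); filled points have an adjusted p under 0.05. In the first 2 panels Myb, Ikzf1 and Ikzf2 are filled only in the blue and red fits, and in the last panel Mecom and Meis1 are filled in all 3 fits, at 4.38 and 3.38 log2 with all libraries.

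Other cell type markers moved with the ENG-/FDG+ fraction. The summed level of 8 endothelial markers, led by the VE-cadherin gene Cdh5, was 4163 to 4873 CPM in ENG+/FDG+, 2042 to 2587 CPM in ENG-/FDG+ and 4028 to 5687 CPM in the ENG+/FDG- libraries. The 8 blood markers, led by Itga2b (CD41), summed to 61.8 to 131 CPM in ENG+/FDG+, 119 to 162 CPM in ENG-/FDG+ and 57.5 to 121 CPM in the ENG+/FDG- libraries, so the fractions overlapped, but within each replicate number the ENG-/FDG+ library was the highest of the 3. The 8 erythroid genes summed to 12.7 to 55.9, 40.4 to 373 and 12 to 72.0 CPM in the same order, and 9 smooth muscle, cardiac and mesenchyme genes to 132 to 604, 367 to 5163 and 284 to 501 CPM. The highest of each of these last sums came from replicate 1 of ENG-/FDG+ cells.

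Of the smooth muscle, cardiac and mesenchyme list, Postn and Actc1 passed the edgeR test in both comparisons with ENG-/FDG+ cells. Of its 9 genes, 7 had a higher mean in ENG-/FDG+ than in either ENG+ fraction and 2 a lower one, Tnnt2 at 7.14 CPM in ENG-/FDG+ cells (19.8 CPM in ENG+/FDG+, 24.5 CPM in ENG+/FDG-) and Pdgfra at 2.89 CPM (4.0 and 3.69 CPM). The erythroid factor gene Gata1 rose by 5.96 ± 0.94 log2 in ENG-/FDG+ relative to ENG+/FDG- cells (adjusted p = 0.0252), at 2.16 ± 1.26 against 0.0202 ± 0.0350 CPM (n = 3 each). No ENG+/FDG- library exceeded 0.0607 CPM for Gata1, where 3 counts correspond to 0.182 to 0.308 CPM, so this log2 value rests on a level near 0. Of the 6 erythroid genes tested, 5 were higher and 1 lower in ENG-/FDG+ than in ENG+/FDG- cells. Of 8 macrophage markers, C1qa, C1qb and Emr1 were at 0 counts in all HEI libraries, and the list's sum rested on Mrc1. The pan-leukocyte gene Ptprc did not exceed 0.509 CPM in any HEI library. The part of these other cell types in the levels of Myb, Ikzf1 and Ikzf2 was not tested, and in bulk samples fewer cells of a type and less RNA per cell cannot be told apart.

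**Figure D3:**
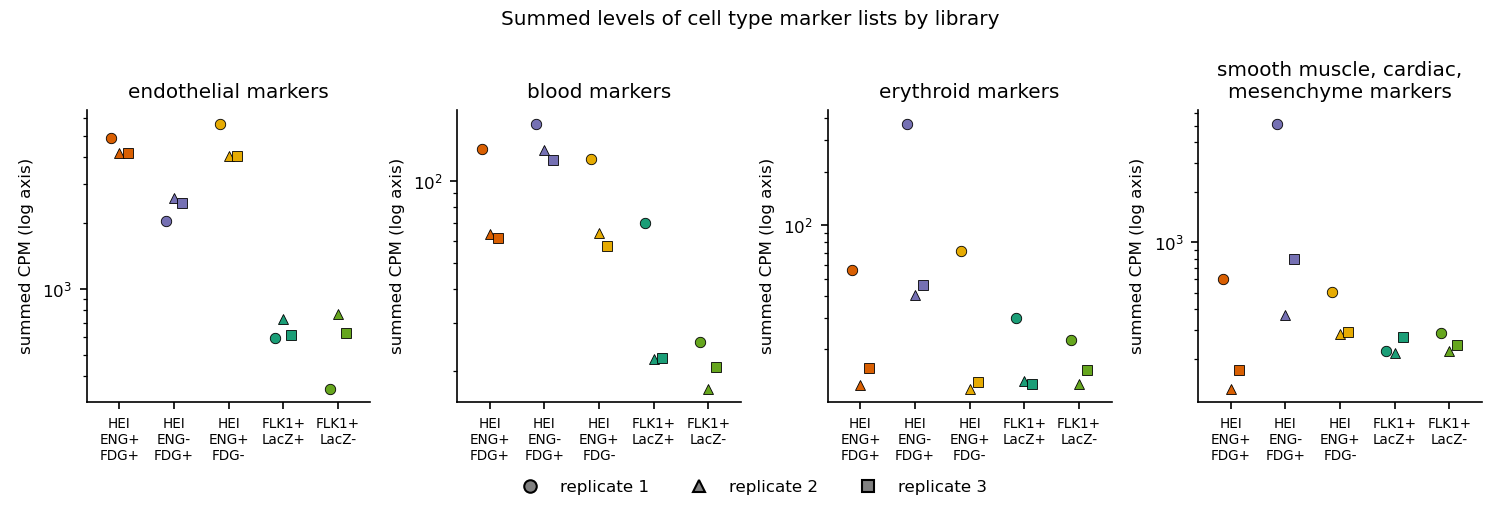
Summed CPM (log axes, different for each panel) of 4 marker lists in the 15 libraries, by sorted group; circles, triangles and squares are replicates 1, 2 and 3. Endothelial markers are at 2042 to 2587 CPM in ENG-/FDG+ libraries, below all other HEI libraries, and replicate 1 of ENG-/FDG+ cells is the highest library for the erythroid list (373 CPM) and the smooth muscle, cardiac and mesenchyme list (5163 CPM).

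The sequences before the start sites of Myb and Ikzf1 are shown because these genes were high together in ENG-/FDG+ cells. Of the 9 genes, 7 matched RefSeq's promoter table (GRCm38.p6), with 9 start sites. Each line gives the 250 bases before a start site, 5′ to 3′ on the gene's strand. Myb lies on chromosome 10 (minus strand, chr10:21160985-21161234), and Ikzf1 on chromosome 11 has an upstream start site (plus strand, chr11:11685675-11685924) and a downstream one (chr11:11689927-11690176). Capitals mark, on either strand, GATA (the core bound by GATA factors), GGAA (ETS factors), TGTGGT (RUNX factors) and AACNG (MYB), and capital runs longer than a motif are matches that touch or overlap.
Myb: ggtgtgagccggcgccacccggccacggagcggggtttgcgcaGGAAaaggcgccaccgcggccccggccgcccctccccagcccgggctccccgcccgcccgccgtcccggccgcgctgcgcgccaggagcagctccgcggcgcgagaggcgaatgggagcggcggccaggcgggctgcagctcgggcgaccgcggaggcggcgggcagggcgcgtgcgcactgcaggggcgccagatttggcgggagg
Ikzf1, upstream start site: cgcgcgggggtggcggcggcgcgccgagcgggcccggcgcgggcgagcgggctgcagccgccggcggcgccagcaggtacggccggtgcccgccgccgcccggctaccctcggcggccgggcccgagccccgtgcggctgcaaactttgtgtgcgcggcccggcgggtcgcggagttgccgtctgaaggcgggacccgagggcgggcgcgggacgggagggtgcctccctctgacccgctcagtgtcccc
Ikzf1, downstream start site: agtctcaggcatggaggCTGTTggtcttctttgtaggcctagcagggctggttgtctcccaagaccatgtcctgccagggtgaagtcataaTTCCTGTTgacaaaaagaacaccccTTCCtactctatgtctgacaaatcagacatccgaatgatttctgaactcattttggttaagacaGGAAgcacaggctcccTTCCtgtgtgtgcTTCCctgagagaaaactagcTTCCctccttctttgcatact

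Among all 32851 promoter windows of this length, 53.6% held GATA, 93.4% GGAA, 14% TGTGGT and 74.2% AACNG. The Myb window was 81.2% G and C and held 1 GGAA match, and the upstream Ikzf1 window was 82.0% G and C and held none of the 4. The downstream Ikzf1 window was 47.6% G and C and held 6 GGAA and 2 AACNG matches. Counts per gene do not separate the Ikzf1 start sites. Of the exon bases of Myb, 6.26% lie opposite an antisense gene, Gm26577, that has no row of its own, and the strand setting of the counting is not given in the sources used here, so that reads of the pair cannot be told apart.

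Mecom and Meis1 separated the stages. Mecom was at 95.2, 133 and 131 CPM in ENG+/FDG+ cells, at 31.4, 80.7 and 66.1 CPM in ENG-/FDG+ and at 101, 131 and 137 CPM in the ENG+/FDG- fraction. It was at 9.45, 6.40 and 8.72 CPM in LacZ+ and at 0.841, 2.86 and 4.08 CPM in the LacZ- fraction. The 5 groups formed a series in which only the 2 ENG+ fractions overlapped: these were highest, ENG-/FDG+ came next, then LacZ+ and last LacZ-. The share of all genes that form such a series was not counted.

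Meis1 was at 27.0, 32.7 and 33.0 CPM in ENG+/FDG+ cells, at 14.7, 29.9 and 25.5 CPM in ENG-/FDG+ and at 26.5, 38.5 and 28.9 CPM in the ENG+/FDG- fraction, against 2.87, 3.50 and 4.21 CPM in LacZ+ and at 0.911, 2.12 and 3.24 CPM in the LacZ- fraction. The HEI fractions overlapped with each other, as did the FLK1+ fractions, and no HEI library reached down to a FLK1+ library. Against ENG-/FDG+ cells the Meis1 difference in ENG+/FDG+ cells was 0.40 ± 0.38 log2 (edgeR adjusted p = 0.929) and positive in 3 of 3 pairs. That for Mecom was 1.01 ± 0.44 (0.489), and only Mecom was called with the replicate block.

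The windows before the start sites of these 2 genes are shown because both rose between the stages. Mecom, on the minus strand of chromosome 3, has an upstream start site (chr3:30509760-30510009) and a downstream one (chr3:30013205-30013454), and Meis1 is on the minus strand of chromosome 11 (chr11:19018970-19019219). Capitals are as above.
Mecom, upstream start site: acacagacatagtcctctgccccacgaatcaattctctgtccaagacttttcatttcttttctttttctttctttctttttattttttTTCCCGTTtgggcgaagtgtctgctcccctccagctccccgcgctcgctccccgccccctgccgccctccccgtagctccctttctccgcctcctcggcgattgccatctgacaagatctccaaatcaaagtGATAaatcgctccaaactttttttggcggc
Mecom, downstream start site: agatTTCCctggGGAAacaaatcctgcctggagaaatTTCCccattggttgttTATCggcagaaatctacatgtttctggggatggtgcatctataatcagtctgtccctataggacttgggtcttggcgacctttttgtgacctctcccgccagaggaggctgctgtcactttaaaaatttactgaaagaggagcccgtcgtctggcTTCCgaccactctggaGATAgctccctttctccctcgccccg
Meis1: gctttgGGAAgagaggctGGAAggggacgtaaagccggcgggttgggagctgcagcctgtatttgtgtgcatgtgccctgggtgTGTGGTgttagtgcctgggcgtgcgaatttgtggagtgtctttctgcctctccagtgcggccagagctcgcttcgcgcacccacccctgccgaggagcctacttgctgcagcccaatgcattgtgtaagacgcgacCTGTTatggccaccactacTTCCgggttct

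The downstream Mecom window held 2 GATA and 4 GGAA matches, and the upstream one 1 GATA, 1 GGAA and 1 AACNG match, the last 2 sharing a base. The Meis1 window held 3 GGAA matches, 1 TGTGGT match and 1 AACNG match. Of the 4 patterns TGTGGT was the least frequent among all windows. A further pair of patterns was searched and is not capitalised, the E-box CANNTG (in 66.2% of all windows) and the MEIS core TGACAG (15.9%): the upstream Mecom and the Meis1 window held 1 E-box each, and the downstream Mecom window held 1 TGACAG. A match is only a run of letters, and the deposited counts do not separate the Mecom start sites. Of the exon bases of Meis1, 8.51% lie opposite the antisense gene Gm16140 and 9.77% are shared with Gm37818 on the same strand. Neither gene has a row, so their reads cannot be told apart from those of Meis1.

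The mean of the 3 HEI groups was set against the mean of the 2 FLK1+ groups to compare the stages. Here 4 of 8 members passed the edgeR test, where 37.3% of all genes were called (17% higher and 20.3% lower), so the share of members called lay close to that of all genes. Mecom rose by 4.38 ± 0.35 log2 (adjusted p = 1.3e-06), Meis1 by 3.38 ± 0.29 (2.2e-06) and Ikzf2 by 1.03 ± 0.37 (0.0420), and Ikzf1 fell by 1.37 ± 0.32 (0.00473). Mecom and Meis1 were the 2 members whose HEI and FLK1+ libraries did not overlap, as was so for 18.2% of all genes. The Ikzf2 call was lost in 11 of the 15 fits that left out 1 library (adjusted p 0.0584 to 0.0908 there). With the replicate block 4 of 8 were called, where 66.2% of all genes were. With replicates 2 and 3 alone all 8 members were called, where 73.7% of all genes were.

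The HEI mean averaged over fractions that differ in Myb, Ikzf1 and Ikzf2, so it was also split, a choice made after the values were seen. For the 2 ENG+ fractions against FLK1+ cells, Ikzf1 fell by 2.20 ± 0.38 log2 (adjusted p = 5.5e-04), while the difference was -1.12 ± 0.53 for Myb (0.124) and 0.35 ± 0.39 for Ikzf2 (0.535). With the replicate block Myb fell by 1.37 ± 0.39 (0.00769) and Spi1 by 1.40 ± 0.54 (0.0331), where 65.7% of all genes were called. All 8 members were called in replicates 2 and 3 alone, where 74.1% of all genes were, with Myb at -0.63 ± 0.11 (6.3e-05) and Ikzf2 at 0.57 ± 0.09 (1.2e-05). For ENG-/FDG+ cells alone against FLK1+ cells, Myb rose by 2.32 ± 0.61 (0.0171) and Ikzf2 by 2.41 ± 0.46 (0.00234), while Ikzf1 differed by 0.29 ± 0.43 (0.726). The block changed no member's call there (49.7% of all genes called), and replicates 2 and 3 alone also called Ikzf1 (0.43 ± 0.09, 2.9e-04) and Hhex (0.38 ± 0.09, 0.00123), where 59.9% of all genes were called. Of all genes, 36.6% were called with the ENG+ fractions and 20.4% with ENG-/FDG+ cells. Mecom rose in both, by 4.72 ± 0.37 (1.1e-06) with the ENG+ fractions and by 3.69 ± 0.38 (3.1e-05) with ENG-/FDG+ cells, and Meis1 rose by 3.52 ± 0.30 (2.4e-06) and 3.11 ± 0.33 (3.9e-05). Over all HEI groups the Myb difference of 0.03 ± 0.49 (0.974) was an average of fractions on either side of the FLK1+ mean.

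Hhex, the homeobox gene, was at 72.6, 90.8 and 83.4 CPM in ENG+/FDG+ cells, at 38.1, 100.6 and 79.9 CPM in ENG-/FDG+ and at 79.2, 96.3 and 97.1 CPM in the ENG+/FDG- fraction. LacZ+ cells had 79.2, 72.2 and 71.2 CPM and LacZ- cells 38.6, 79.8 and 67.1 CPM. All neighbouring groups overlapped, and the 2 lowest libraries were replicate 1 of ENG-/FDG+ and of LacZ- cells. The stage difference was 0.27 ± 0.21 log2 (edgeR adjusted p = 0.352), and in replicates 2 and 3 alone it was 0.43 ± 0.07 (1.3e-05).

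Hlf, the bZIP gene, was at or under 2.94 CPM in every library, with 0.520, 1.43 and 1.59 CPM in ENG+/FDG+ libraries, 1.19, 0.769 and 1.45 CPM in ENG-/FDG+ and 1.27, 0.969 and 2.08 CPM in the ENG+/FDG- libraries. LacZ+ libraries had 2.94, 0.300 and 0.411 CPM, and LacZ- libraries 0.911, 0.0923 and 1.21 CPM. Its highest value came from replicate 1 of LacZ+ cells (46 counts), where replicates 2 and 3 had 3 and 4 counts. All groups overlapped. The stage difference was 0.36 ± 0.57 log2 (adjusted p = 0.665) with all libraries and 1.59 ± 0.50 (0.00755) in replicates 2 and 3.

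The myeloid genes were hardly detected. Spi1 had 31, 0 and 1 counts in ENG+/FDG+, 152, 5 and 17 counts in ENG-/FDG+, 42, 3 and 7 counts in ENG+/FDG-, 65, 15 and 12 counts in LacZ+ and 27, 9 and 8 counts in LacZ- libraries. In every group the replicate 1 library was the highest, and the ENG-/FDG+ value of 12.9 CPM in replicate 1 stood beside 0.481 and 1.45 CPM in replicates 2 and 3. The blocked call of Spi1 against ENG-/FDG+ cells given above thus rests on few counts outside replicate 1. Cebpa had at most 8 counts in any library and failed the filter. The limit that a count of 0 allows, 3 counts, corresponds to 0.182 to 0.308 CPM in these libraries, for counting error only, and 13 of the 15 Cebpa values were at or under 3 counts.

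LacZ+ and LacZ- fractions of FLK1+ cells were compared to ask what goes with activity of the 3-enhancer reporter in mesoderm. No member was called, where 0% of all genes were, and 1 of 8 had an unadjusted p under 0.05, against 170 genes (1.24%) of all tested; DESeq2 called none of the 8. That member was Mecom, whose log2 difference was 1.67 ± 0.47 (edgeR unadjusted p = 0.00376, adjusted p = 1). The pairs differed by 3.25, 1.12 and 1.07 log2 in replicates 1, 2 and 3, and the libraries of Mecom did not overlap between LacZ+ and LacZ- cells, as was so for 4.01% of all genes. All 8 differences were positive, as were 7845 of all 13662, with a median of 0.733 log2 against 0.039 over all genes. Beside Mecom they ranged from 0.26 ± 0.33 (Hhex) to 0.99 ± 1.32 (Spi1). Leaving out replicate 1 of LacZ- cells lowered Myb to 0.422, Ikzf1 to 0.172, Ikzf2 to 0.221 and Hhex to 0.013. It also lowered Mecom to 1.237 and Meis1 to 0.387, and raised Spi1 to 1.546. In replicates 2 and 3 alone none of 8 was called (0.0601% of all genes), the median was 0.365 against 0.008, and 2 of the 8 were negative, Hhex at -0.045 and Hlf at -0.86. The summed endothelial markers were at 595 to 727 CPM (LacZ+ libraries) against 349 to 763 CPM (LacZ- libraries), mostly from Kdr, the gene of the FLK1 sort. The other 7 were higher on average in LacZ+ cells, 5 of them without overlap: Cdh5 was at 62.9 ± 52.5 CPM in LacZ+ against 13.4 ± 2.61 CPM in LacZ- cells, and Tek at 36.8 ± 8.92 against 17.5 ± 7.48 CPM (SD, n = 3 each). Their sum was 271, 80.0 and 104 CPM in LacZ+ against 30.5, 47.9 and 53.8 CPM in LacZ- libraries. Cdh5 rose in the fit of replicates 2 and 3 (1.12 ± 0.12 log2, edgeR adjusted p = 1.9e-04). Pluripotency genes summed to 11.8 to 90.4 CPM in LacZ+ against 23.2 to 32.8 CPM in LacZ- libraries. The part of either list in these differences was not tested.

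ENG+/FDG+ and ENG+/FDG- cells differ only in the reporter gate. Here no member was called by edgeR (0% of all genes called), by DESeq2 or at an unadjusted p under 0.05, which 39 genes (0.285%) had. Differences ran from -0.64 ± 1.35 log2 for Spi1 to -0.02 ± 0.38 for Meis1, and that of Mecom was -0.04 ± 0.44. In replicates 2 and 3 alone, 0.563% of all genes and no member were called. Myb stood lower in ENG+/FDG+ cells in replicates 2 and 3, at 11.3 and 9.44 CPM against 15.9 and 16.1 CPM in ENG+/FDG- cells, and higher in replicate 1, at 3.12 against 0.910 CPM. Cebpa was the member whose libraries did not overlap, as was so for 3.41% of all genes tested, at counts of 0 to 2.

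Ikzf1, Ikzf2 and Spi1 were lower in ENG+/FDG+ than in ENG+/FDG- cells in 3 of 3 pairs, and higher in LacZ+ than in LacZ- cells in 3 of 3 pairs. The difference between the 2 reporter effects did not pass the edgeR test for any of 8 members (adjusted p = 1 for each, 0% of all genes called). It was -0.77 ± 0.72 log2 for Ikzf1, -0.90 ± 0.78 for Ikzf2, -1.63 ± 1.88 for Spi1 and -1.71 ± 0.64 for Mecom, the 1 member with an unadjusted p under 0.05 (0.0195), against 97 genes (0.71%) of all tested. DESeq2 and the fit of replicates 2 and 3, which called 0.03% of all genes, called none of the 8.

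Myb and Mecom, set beside each other in each library, placed the groups in separate regions, except for the 2 ENG+ fractions. There were 0.0328, 0.0853 and 0.0723 Myb reads per Mecom read in ENG+/FDG+, 1.91, 1.48 and 1.85 in ENG-/FDG+ and 0.00901, 0.121 and 0.118 in ENG+/FDG- libraries. LacZ+ libraries had 3.12, 3.0 and 3.32 and LacZ- libraries 10.4, 6.68 and 4.77. The 2 ENG+ fractions overlapped and the other groups did not, replicate 1 included. Mecom alone separated the groups in the same way, and how many gene pairs do so was not tested. These ratios are not corrected for gene length, which affects all libraries alike.

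**Figure D4:**
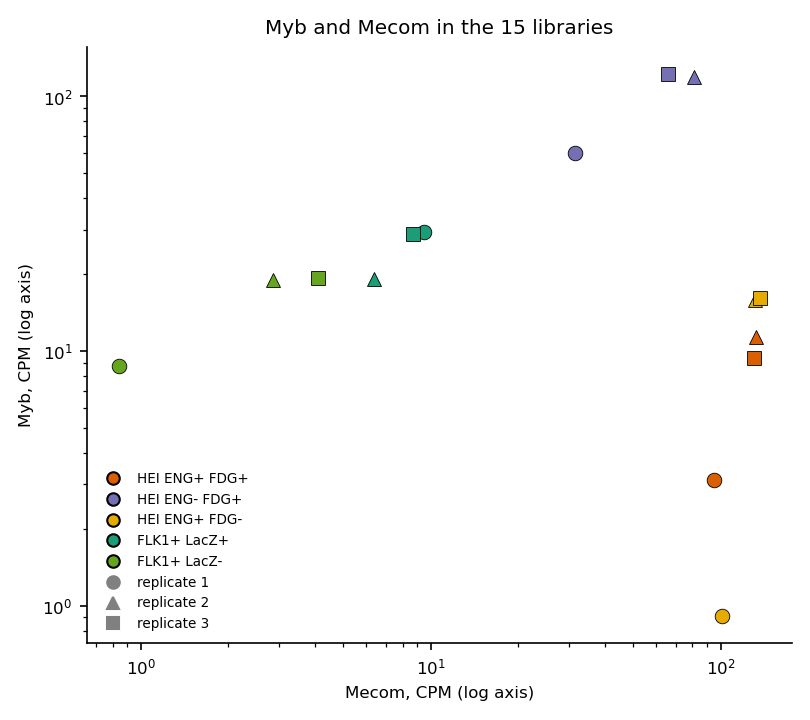
Mecom (x axis) and Myb (y axis) in CPM, both on log axes, in the 15 libraries; colours are the 5 sorted groups, and circles, triangles and squares are replicates 1, 2 and 3. ENG-/FDG+ libraries combine Myb at 60.0 to 122 CPM with Mecom at 31.4 to 80.7 CPM, ENG+ HEI libraries have high Mecom with Myb at 0.910 to 16.1 CPM, and FLK1+ libraries have Mecom below 10 CPM.

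Genes related to the 9 members were read from 4 lists, chosen like the members with earlier results of these data known. Among 12 tested paralogues, none was called in the LacZ, FDG or ENG comparisons with group means alone, and between the stages 4 fell and none rose, where 20.3% of all genes fell and 17% rose. Those 4 were Mybl2, a cell cycle relative of Myb (-1.23 ± 0.32 log2, adjusted p = 0.00898), Ikzf4, which encodes the Ikaros relative Eos (-3.21 ± 0.48, 1.7e-04), Meis3 (-1.21 ± 0.38, 0.0239) and the bZIP gene Nfil3 (-1.23 ± 0.44, 0.0415). The median of the paralogues was -0.167 log2, against -0.112 over all genes and 0.317 over the 8 members. Between the stages 2 paralogues rose and 5 fell with the replicate block, where 66.2% of all genes were called. In replicates 2 and 3 alone 3 rose and 5 fell, where 73.7% of all genes were called. With the replicate block Nfil3 rose by 2.01 ± 0.43 (0.00970) and Ikzf4 fell by 2.66 ± 0.77 (0.0412) in ENG+/FDG+ relative to ENG-/FDG+ cells. Of all genes, 10.8% were called there. No ENG+/FDG+ library exceeded 0.397 CPM for Ikzf4, close to the level of 3 counts (0.182 to 0.308 CPM). Its ENG-/FDG+ libraries ranged from 0.289 to 2.8 CPM. For this comparison the fit of replicates 2 and 3 called 3 paralogues higher and 0 lower, where 29.3% of all genes were called. Ikzf4 was thus not called lower in that fit. Ikzf3, the paralogue known from lymphocytes, was at 0 counts in all HEI libraries.

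Of 16 tested partner and cofactor genes, 1 rose and 2 fell between the stages, where 37.3% of all genes were called: Jun, a partner of PU.1, at 1.95 ± 0.62 log2 (0.0252), Pbx3, a partner of MEIS1, at -0.81 ± 0.17 (0.00229), and Hdac1, a deacetylase of Ikaros complexes, at -0.60 ± 0.17 (0.0124). With the replicate block 4 rose and 7 fell between the stages, where 66.2% of all genes were called. In replicates 2 and 3 alone 6 rose and 7 fell, where 73.7% of all genes were called. Chd4, the remodelling enzyme found with Ikaros in the NuRD complex, was at 529 ± 58.8 CPM in ENG+/FDG+ and at 656 ± 139 CPM in the ENG-/FDG+ fraction (SD, n = 3 each), a difference of -0.31 log2 (edgeR adjusted p = 0.916). None of the 16 was called in the ENG comparison, and Jun alone with the block (0.57 ± 0.15, 0.0315), where 10.8% of all genes were. In replicates 2 and 3 alone 2 were called higher and 6 lower in ENG+/FDG+ than in ENG-/FDG+ cells, where 29.3% of all genes were called.

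Of 15 genes known to be regulated by PU.1 and C/EBP-alpha in myeloid cells, 4 passed the filter. Mpo, which encodes the granule enzyme myeloperoxidase, was at 5.89 ± 0.77 CPM in ENG+/FDG+, 17.7 ± 6.13 CPM in ENG-/FDG+ and at 6.21 ± 0.44 CPM in the ENG+/FDG- fraction, against 4.48 ± 2.59 CPM in LacZ+ and at 1.47 ± 0.76 CPM in the LacZ- fraction (SD, n = 3 each). It rose between the stages by 1.75 ± 0.32 log2 (7.7e-04), as did the lysozyme gene Lyz2 by 3.17 ± 0.79 (0.00669), so that 2 of 4 rose, where 17% of all genes did. With the replicate block Mpo fell by 1.57 ± 0.42 in ENG+/FDG+ relative to ENG-/FDG+ cells (0.0301), and without it the adjusted p was 0.210. Of all genes, 10.8% were called with the block. In replicates 2 and 3 alone 2 of these myeloid genes were called lower and 0 higher, where 29.3% of all genes were called. The neutrophil gene Elane was at 0 in all 15 libraries, and the macrophage receptor gene Csf1r did not exceed 0.912 CPM.

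Of 13 blood genes commonly read as targets of MYB or Ikaros, 7 were tested, and 3 rose and 3 fell between the stages, where 17% of all genes rose and 20.3% fell. Cd34, a surface glycoprotein of blood progenitors and endothelium, rose by 5.99 ± 0.42 log2 (4.3e-07), as did Kit, the stem cell factor receptor, by 1.48 ± 0.21 (1.1e-04), and Mpo. Myc fell by 1.61 ± 0.27 (3.8e-04), Gata3 by 1.83 ± 0.29 (3.1e-04) and the survival gene Bcl2 by 0.91 ± 0.20 (0.00238). In the ENG comparison none was called with group means, and with the block Bcl2 rose by 1.0 ± 0.26 (0.0259) and Mpo fell, where 10.8% of all genes were called. In replicates 2 and 3 alone 3 of these genes were called higher and 2 lower in ENG+/FDG+ than in ENG-/FDG+ cells, where 29.3% of all genes were called. Kit was at 123 ± 40.6 CPM in ENG+/FDG+, 163 ± 13 CPM in ENG-/FDG+ and at 117 ± 30.5 CPM in the ENG+/FDG- fraction (SD, n = 3 each), a log2 difference of -0.41 between the first 2 (adjusted p = 0.855).

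The genes most like each member were found by Pearson correlation of log2 CPM over the 15 libraries, after subtracting the mean of each replicate number, among 9467 genes. These correlations are descriptions, since the libraries share their groups and the groups form clusters. Mecom was most like 3 genes at r = 0.997, the endothelial genes Eltd1 and Tie1 and Ptchd1. Tie1, an endothelial receptor tyrosine kinase, was at 240 CPM in ENG+/FDG+, 95.6 CPM in ENG-/FDG+ and at 240 CPM in the ENG+/FDG- fraction, against 12.6 CPM in LacZ+ and at 2.60 CPM in the LacZ- fraction. Meis1 was most like Tnfaip2 (0.997), Cd34 (0.996) and Ptbp3 (0.995).

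For Myb the nearest were Nrip3 (0.958), Unc5c (0.938) and Ubxn2a (0.934), and Nrip3 stood at 1.08, 36.1 and 2.20 CPM in ENG+/FDG+, ENG-/FDG+ and ENG+/FDG- cells. Ikzf1 was most like Pde4dip (0.984), Cirh1a (0.966) and Fads2 (0.965), and Ikzf2 like Mfsd2b (0.959), Cap2 (0.955) and Gpr56 (0.951), an adhesion receptor gene at 10.7, 86.1 and 10.8 CPM in the same 3 HEI fractions. Hhex had its nearest genes at lower values, Slu7 (0.931), Pigq (0.897) and Pknox1 (0.896).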

How the data were processed

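RNA amplification used a Nugen kit, per the labels' protocols. The authors deposited 1 table of raw counts, not normalized, with genes named by symbol. The submitters' processing notes name STAR 2.4.0, HTSeq 0.6.1 and mm10; no source used here gives the annotation, strand setting or filters. Of 24061 lines, 27 with a calendar date in place of a symbol were left out. Coordinates and exon lengths are from GENCODE M21 (GRCm38).

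The 15 libraries were grouped by their labels. In edgeR 4.0.16 (limma 3.58.1, R 4.3.3), filterByExpr kept 13662 genes, libraries were TMM scaled, and 1 robust quasi-likelihood model with group means was fitted; adjusted p values are Benjamini-Hochberg over all genes, from edgeR unless DESeq2 (1.42.0) is named. The scripts were tested on simulated data. Same-numbered libraries deviated together from their group means. Correlations were 0.563 to 0.867 for replicate 1, 0.472 to 0.665 for 2 and 0.432 to 0.680 for 3. Replicate 2 and replicate 3 libraries of different groups did so too (0.429 to 0.636). The correlations thus set replicate 1 apart but cannot show that numbers 2 and 3 pair samples. The numbers were still taken to pair the samples, and the block was run as an alternative. The biological coefficient of variation was 0.477 without the block, 0.200 with it and 0.0761 within replicates 2 and 3.

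The members and lists were chosen with earlier results of these data known. Named genes were the members, up to 4 called genes per list (otherwise those with the highest level), and the 3 genes most like each member whose highest group mean was at least 5 CPM, among genes reaching 10 CPM. Alternatives were RLE size factors, no filter, at least 5 CPM in 3 libraries, DESeq2, only the groups compared, the block, replicates 2 and 3, and each library left out.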

Additional observations from a re-analysis of the deposited data

How the results depend on the processing

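RLE size factors, no filter, a filter of 5 CPM in 3 libraries and a fit of only the groups compared left each count of members called within 1.5 times. DESeq2 called 3 members for ENG+/FDG+ against ENG-/FDG+, 3 for ENG-/FDG+ against ENG+/FDG- and 3 for any HEI difference, each against 0 with edgeR. With the replicate block these counts were 5, 4 and 4, and in replicates 2 and 3 they were 5, 4 and 5, with 8 for the stages against 4; beside the calls given for the stage split, the block changed no other call of a member. Leaving out 1 library gave 0 to 1 calls in each of the 3 HEI tests: Ikzf1 without replicate 1 of ENG-/FDG+ (adjusted p = 0.0498) or of LacZ- cells (0.0345), and Myb without replicate 1 of ENG+/FDG- cells (0.0161), all for ENG+/FDG+ against ENG-/FDG+, and Ikzf1 without replicate 1 of LacZ- cells (0.0460) for ENG-/FDG+ against ENG+/FDG-. Of uncalled differences that changed sign, the stage value was 0.073 for Spi1 with no filter and -0.18 for Myb with the block. In replicates 2 and 3 the LacZ value was -0.045 for Hhex and -0.86 for Hlf, the FDG value 0.001 for Mecom and 0.008 for Hlf, and the difference between reporter effects 0.87 for Hlf. In the stage split, chosen after the values were seen, Myb was -1.12 without ENG-/FDG+ cells, and Ikzf1 and Spi1 were 0.29 and 1.58 with ENG-/FDG+ cells alone. Without 1 library, ENG+/FDG+ minus ENG+/FDG- ranged from -0.48 to 0.024 for Ikzf1, -0.73 to 0.028 for Ikzf2, -0.17 to 0.10 for Mecom, -0.13 to 0.16 for Meis1, -0.58 to 0.068 for Hlf and -4.31 to 0.75 for Spi1. ENG+/FDG+ minus ENG-/FDG+ ranged from -0.12 to 0.48 for Hhex and -0.24 to 0.41 for Hlf. ENG-/FDG+ minus ENG+/FDG- ranged from -0.55 to 0.012 for Hlf and -0.30 to 3.47 for Spi1, and the stage value from -0.12 to 0.21 for Myb and -1.23 to 0.37 for Spi1. For Hlf, LacZ+ minus LacZ- ranged from -1.04 to 1.26 and the difference between reporter effects from -1.56 to 0.74. A fit of only the groups compared could not be run for the stages, which use all groups. The cause of these changes was not tested. Hlf, Spi1 and Cebpa are limited by few counts, with at most 46, 152 and 8 in a library. For Spi1 the 152 counts came from replicate 1 of ENG-/FDG+ cells, and no library of replicates 2 and 3 exceeded 17.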
